A study of Mus musculus with 26 samples.

Results

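The ribosome biogenesis genes described here are 35 mouse genes whose products make ribosomal RNA, modify and cut it, assemble it with ribosomal proteins, or supply nucleotides and polyamines for that work. They were chosen by name and matched by mouse symbol to the Ensembl identifiers of the count data, not by a threshold on their values. Earlier results of these data were known when they were chosen. All 35 were found among the 54146 gene identifiers and passed the filter on low counts, which left 12986 genes to test. Their counts lay between 229 and 51464 per library, and their genes lie on 17 chromosomes.

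RNA was measured in 6 cultures of a mouse model of acute myeloid leukemia, 3 labelled MA9+EV (the controls) and 3 labelled MA9+SETDB1. All 6 came from lineage-negative (lin-) bone marrow infected with a retrovirus for MLL-AF9 (MA9), a fusion oncogene of human leukemia, so the controls carry it too. MA9+SETDB1 cells also received SETDB1, an enzyme that methylates lysine 9 of histone H3, and MA9+EV cells received the empty MSCVpuro vector (EV). Cells of both arms were selected with puromycin for 3 to 6 weeks in medium with IL-3 and SCF and were cultured for 8 to 12 weeks in all. The series design speaks of biological replicates, and no label says whether they were separate transductions. The p-values therefore measure only the spread between these libraries, which may be partly technical. The question was which of these genes differ in RNA level when SETDB1 is overexpressed on an MLL-AF9 background.

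A ribosome starts in the nucleolus, where RNA polymerase I copies the ribosomal DNA into a long precursor RNA. Box C/D particles add methyl groups to that RNA and box H/ACA particles turn uridines into pseudouridines, each guided by a small nucleolar RNA (snoRNA). Separate sets of assembly factors then cut and fold the precursor into the small and the large subunit. Growing cells, leukemic blasts among them, spend much of their transcription on this pathway, and the transcription factor MYC is a well-known activator of it through the E-box CACGTG.

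Of the 35 genes, 21 were lower in MA9+SETDB1, 1 was higher and 13 were not called by edgeR's quasi-likelihood test at an adjusted p of 0.05, with adjustment over all 12986 genes. That count has to be read against a very broad difference between the arms: 53.5% of all tested genes were called, 26.2% lower and 27.4% higher. The 21 genes are 60.0% of the 35, a list chosen with earlier results of these data known. The median log2 fold change (MA9+SETDB1 over MA9+EV) was -0.38 for the 35 genes and -0.01 for all tested genes. The falls were moderate, since the called genes kept between 36.6% and 81.6% of their MA9+EV level, 11 of them fell by more than 0.5 on the log2 scale and 1, Dkc1, by more than 1. In 24 genes every MA9+SETDB1 library lay below every MA9+EV library and in 2 every one lay above, while 32.5% and 32.1% of all tested genes separated in those directions. The count of 21 fell to 12 when MA9+EV replicate 3 or either of MA9+SETDB1 replicates 2 and 3 was left out, and to 8 when replicates 2 and 3 of each arm were summed to 1 library. Without replicate 1 of both arms, a choice made after seeing the data, it was 23, with 4 higher. Calls over all tested genes moved too. From 3397 lower of 12986 in the main fit, they went to 2789, 2727 and 2781 under those omissions, in that order. With the sum they were 1928 lower of 13942, and without replicate 1 of both arms 5285 lower and 5314 higher of 13380.

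**Figure D1:**
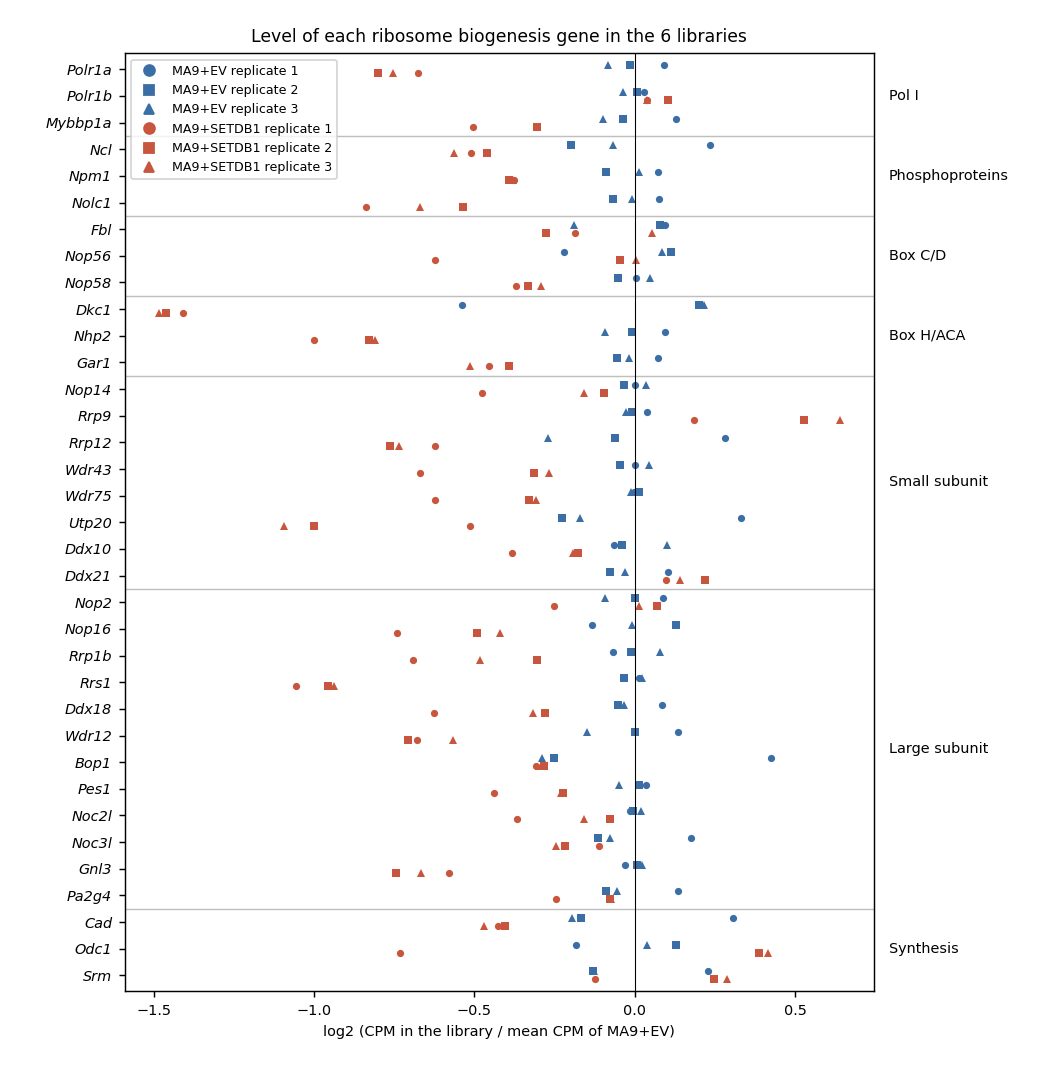
Level of each of the 35 genes in each library, as the log2 ratio of its CPM (counts scaled to a library of 1000000 counts) to the MA9+EV mean, ordered by role on the vertical axis; blue marks are MA9+EV and red marks MA9+SETDB1, with 1 shape per replicate number. Most red marks lie to the left of the blue ones, Dkc1 lies furthest left, and all 3 red marks of Rrp9 lie to the right.

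In the counts of the libraries themselves, the 35 genes together took 1.00%, 0.908% and 0.940% of gene counts in MA9+EV replicates 1, 2 and 3 and 0.625%, 0.625% and 0.619% in MA9+SETDB1. On the scale used below, CPM after TMM scaling of library size, their sum was 8782 ± 486 in MA9+EV and 6760 ± 390 in MA9+SETDB1 (mean ± SD, n = 3 each), or 77.0% of the MA9+EV level. Without Ncl, the gene with the highest count, the sums were 6976 ± 202 and 5492 ± 385 CPM, or 78.7%. The sums of the 2 arms did not overlap. In bulk RNA, fewer cells of a type and less RNA per cell cannot be told apart.

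The E-box, the letters read by MYC and its relatives, was looked for close to the starts of these genes only. Sites further from the start were not searched. RefSeq promoter windows of GRCm38.p6, from 250 bases before to 50 bases after each annotated start, were matched for 29 of the 35 genes (33 windows). CACGTG, which reads the same on both strands, stood in 5 of these windows (15.2%), in 10.1% of the windows of tested genes and in 7.15% of all windows. Before the start, it stood in 3.03% of the windows of the 35 genes, 8.39% of those of tested genes and 6.02% of all. The 5 sites are printed 5′ to 3′ on the gene's strand with the E-box in capitals. Of these sites, 4 belong to genes called lower and 1, that of Nop2, to a gene that was not called, while 60.0% of the 35 genes were called lower. Whether an E-box goes with a call was not tested.
Nop2, chr6:125131811-125131840, plus strand: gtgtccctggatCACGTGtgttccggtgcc
Utp20, chr10:88826765-88826789, minus strand: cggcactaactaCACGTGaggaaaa
Pes1, chr11:3963965-3963994, plus strand: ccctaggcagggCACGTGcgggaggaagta
Mybbp1a, chr11:72441355-72441376, plus strand: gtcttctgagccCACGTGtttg
Wdr43, chr17:71616220-71616249, plus strand: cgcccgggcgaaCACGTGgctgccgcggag
Positions are counted from the annotated start on which each window was set. The E-box of Nop2 began 60 bases before that start, while those of Pes1, Wdr43, Utp20 and Mybbp1a began at bases 3, 18, 38 and 41 from it. For Wdr43 the annotated start of the window lies downstream of the RefSeq gene start at 71616178. The 5 sites are matches of letters in a window, and no binding was measured at them here. The windows of the 35 genes had a median of 59.3% G and C and 21 CG dinucleotides, those of tested genes 60.3% and 20, and all windows 52.7% and 7.

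Genes of the box H/ACA particle had the lowest median of the 7 roles (-0.88), and all 3 of its core proteins among the 35 genes were called lower. The summed level of the 3 genes was 670 ± 100 CPM in the controls and 304 ± 3.95 CPM in MA9+SETDB1 (SD, n = 3), which is 45.4%. Dkc1 weighed most in that sum, with means of 422 and 154 CPM. Dkc1 kept 36.6% of its MA9+EV level by the fit, Nhp2 54.5% and Gar1 73.1%. Dkc1 (chromosome X, 75095854 to 75109776) encodes dyskerin, the pseudouridine synthase, which also belongs to the telomerase particle and is mutated in dyskeratosis congenita. It had 291, 485 and 490.3 CPM in MA9+EV replicates 1, 2 and 3 and 159, 153 and 151 CPM in MA9+SETDB1. The 3 MA9+SETDB1 libraries lay close together and far below all controls, among which replicate 1 was much lower than the other two. Dkc1 fell by 1.45 on the log2 scale (SE 0.210, adjusted p = 0.00131, edgeR).

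Nhp2 (chromosome 11, 51619773 to 51623718) encodes a small protein that binds the guide RNA beside dyskerin. It had 183, 171 and 161 CPM in the controls and 85.8, 96.5 and 97.9 CPM in MA9+SETDB1. The arms were clearly apart, and each was tight. Nhp2 fell by 0.88 (SE 0.103, adjusted p = 0.000537, edgeR). Gar1 (chromosome 3, 129824912 to 129831407), the core protein that helps the enzyme take up and release its substrate, had 81.0, 74.2 and 76.1 CPM in the controls and 56.3, 58.8 and 54.0 CPM in MA9+SETDB1. Again no library of one arm reached the other, and Gar1 fell by 0.45 (SE 0.092, adjusted p = 0.00567, edgeR).

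The fourth core protein, Nop10, was on a wider list and not among the 35. It is named here after its values were seen because it completes the particle. Nop10 had 79.6, 103 and 103 CPM in the controls and 121, 114 and 135 CPM in MA9+SETDB1. Every MA9+SETDB1 library was above every control, in the opposite direction to Dkc1, Nhp2 and Gar1, but Nop10 did not pass the test (log2 fold change 0.38, SE 0.135, adjusted p = 0.0518, edgeR). It did pass with the replicate block (0.38, adjusted p = 0.0348), with RLE scaling (0.39, adjusted p = 0.046) and without replicate 1 of both arms (0.29, adjusted p = 0.00014, all edgeR).

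Of the 3 box C/D genes, 1 was lower and 2 were not called, with a median of -0.20. Nop58, a scaffold protein of the particle, had 315, 303 and 325 CPM in the controls and 243, 249.9 and 257 CPM in MA9+SETDB1. The arms did not overlap, and Nop58 fell by 0.33 (SE 0.093, adjusted p = 0.0211, edgeR). Its call was lost under 6 alternatives, among them the omission of replicate 2 or 3 of either arm. Its partner scaffold Nop56 had 245, 308 and 302 CPM against 185, 276 and 286 CPM. Replicate 1 was the lowest library of each arm, the arms overlapped, and Nop56 was not called (log2 fold change -0.20, SE 0.192, adjusted p = 0.421, edgeR). Fbl, the gene of fibrillarin, the methyltransferase itself, had 18.0, 17.8 and 14.8 CPM against 14.8, 13.9 and 17.5 CPM and was not called (-0.13, SE 0.166, adjusted p = 0.537, edgeR). Reads that align to more than 1 place were not counted, so genes with near-identical copies elsewhere, Npm1 and Fbl possibly among them, may have lost reads. The summed level of the 3 C/D genes was 616 ± 33.9 CPM in the controls and 514 ± 62.3 CPM in MA9+SETDB1 (SD, n = 3). The fourth box C/D protein, Snu13, also taken from the wider list after its values were seen, had a log2 fold change of -0.47 (SE 0.177, adjusted p = 0.0589, edgeR). Every MA9+SETDB1 library of Snu13 was below every control. Snu13 passed with upper-quartile scaling (adjusted p = 0.0363), library totals only (0.00941) and without replicate 1 of both arms (0.00588, all edgeR), and with DESeq2 (adjusted p = 0.0496). Whether the 2 kinds of particle differ in their response was not tested.

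**Figure D2:**
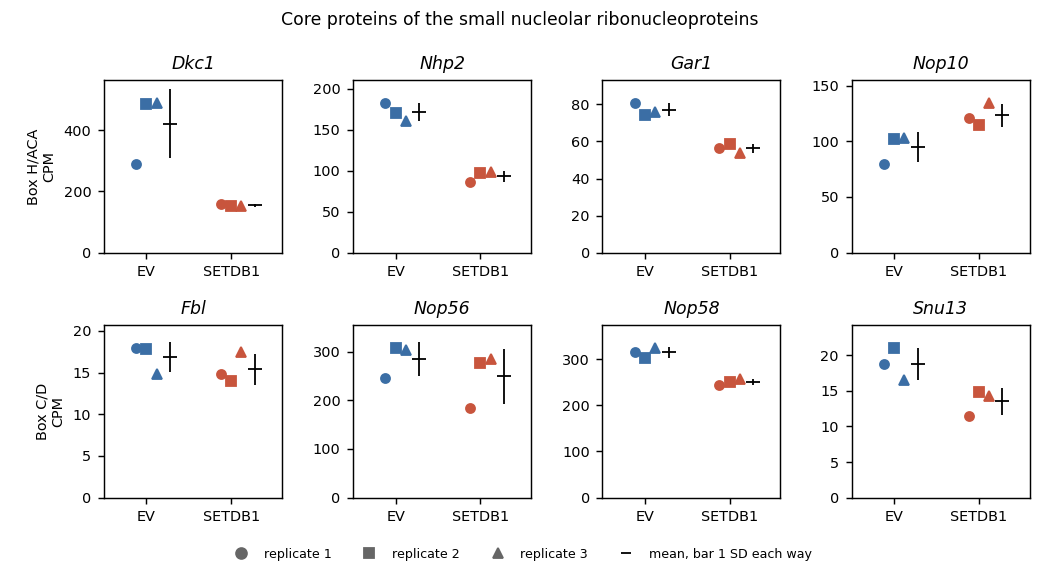
CPM of the 4 core proteins of the box H/ACA particle (upper row) and of the box C/D particle (lower row) in each library, blue for MA9+EV and red for MA9+SETDB1, with the mean and 1 SD each way in black; each panel has its own vertical axis from 0. Dkc1, Nhp2 and Gar1 are lower in every MA9+SETDB1 library, and Nop10 lies higher in every one without passing the main test. Of the C/D genes Nop58 alone was called in the main test, and Snu13 lies lower in every MA9+SETDB1 library without passing it.

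Among the genes that make the precursor RNA, Polr1a was lower and Polr1b was not. Polr1a (chromosome 6, 71909053 to 71979435) encodes the largest subunit of RNA polymerase I. It had 136, 126 and 120.2 CPM in the controls and 79.8, 73.2 and 75.5 CPM in MA9+SETDB1. The arms were well apart, and Polr1a fell by 0.74 (SE 0.094, adjusted p = 0.000743, edgeR). Polr1b, the second-largest subunit, which forms the active centre together with Polr1a, had 101, 99.2 and 96.2 CPM in the controls and 101, 106 and 101 CPM in MA9+SETDB1. Its MA9+SETDB1 libraries were all above the controls by a narrow margin, and it was not called (0.06, SE 0.083, adjusted p = 0.574, edgeR). That sign turned to -0.01 with upper-quartile scaling and to -0.17 with library totals as the only scaling.

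Mybbp1a, a nucleolar MYB-binding protein that takes part in ribosomal DNA transcription and precursor processing, had 641, 571 and 548 CPM in the controls and 414, 475 and 475 CPM in MA9+SETDB1. The arms did not overlap, and its fall of 0.37 passed narrowly (SE 0.121, adjusted p = 0.0383, edgeR). With the replicate number as a block it did not pass (-0.37, adjusted p = 0.0567, edgeR), and it lost its call under 9 of the 15 alternatives run, among them the omission of each library in turn.

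All 3 nucleolar phosphoproteins were lower. Ncl (chromosome 1, 86344719 to 86359455) encodes nucleolin, which binds nascent ribosomal RNA and chromatin. It had 2125, 1573 and 1722 CPM in the controls and 1268, 1314 and 1222 CPM in MA9+SETDB1. The controls spread widely, replicate 1 being the highest, but none came down to the MA9+SETDB1 range, and Ncl fell by 0.51 (SE 0.156, adjusted p = 0.0290, edgeR). Npm1 (chromosome 11, 33152498 to 33164142) encodes nucleophosmin, a histone and ribosomal protein chaperone that is often mutated in human acute myeloid leukemia. It had 625, 559 and 599.7 CPM in the controls and 458, 453 and 457 CPM in MA9+SETDB1. Its MA9+SETDB1 libraries were nearly equal and all below the controls, and Npm1 fell by 0.38 (SE 0.104, adjusted p = 0.0187, edgeR). Ncl and Npm1 each lost the call when MA9+EV replicate 3 or either of MA9+SETDB1 replicates 2 and 3 was left out. Nolc1 (chromosome 19, 46075847 to 46085543), a chaperone that shuttles snoRNA particles to the nucleolus, had 419.8, 379.6 and 395 CPM against 223, 274 and 250.5 CPM. It fell by 0.68 (SE 0.118, adjusted p = 0.00287, edgeR) and kept the call under all 15 alternatives.

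Of the 8 small subunit factors, 4 were lower, 1 was higher and 3 were not called, with a median log2 fold change of -0.33. Utp20 (chromosome 10, 88746607 to 88826814), a very large scaffold of the early small subunit precursor, had 137, 93.1 and 96.9 CPM in the controls and 76.4, 54.5 and 51.1 CPM in MA9+SETDB1. Replicate 1 was the highest library in both arms, the arms did not overlap, and Utp20 fell by 0.85 (SE 0.214, adjusted p = 0.0143, edgeR). It lost the call without MA9+SETDB1 replicate 2 or 3. Rrp12, which takes part in the export of pre-ribosomal particles, had 106, 83.4 and 72.1 CPM against 56.5, 51.3 and 52.3 CPM. The controls varied more than the MA9+SETDB1 libraries and all stayed above them, and Rrp12 fell by 0.71 (SE 0.153, adjusted p = 0.00752, edgeR). Wdr43 and Wdr75, both of the complex that first binds the precursor and links its transcription to processing, fell by 0.41 (SE 0.13, adjusted p = 0.0345, edgeR) and by 0.41 (SE 0.112, adjusted p = 0.0183, edgeR). Wdr43 ranged from 225 to 239.8 CPM in the controls and from 146 to 193 CPM in MA9+SETDB1, and Wdr75 from 118 to 120.1 CPM and from 77.3 to 96.1 CPM. In both genes MA9+SETDB1 replicate 1 was the lowest library by a clear margin. Wdr43 lost its call without MA9+EV replicate 1, 2 or 3 or MA9+SETDB1 replicate 2, and Wdr75 without MA9+EV replicate 2 or 3.

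Rrp9 (chromosome 9, 106477309 to 106485415) was the 1 gene of the 35 called higher. It encodes the protein that is specific to the U3 box C/D particle, which guides the early cuts in the small subunit precursor. Rrp9 had 63.6, 61.6 and 60.7 CPM in the controls and 70.5, 89.4 and 96.4 CPM in MA9+SETDB1. All MA9+SETDB1 libraries were above the controls, replicate 1 by much less than the others, and Rrp9 rose by 0.46 (SE 0.132, adjusted p = 0.0228, edgeR). The call was lost under 6 of the 15 alternatives. These were the omission of MA9+EV replicate 2 or 3 or MA9+SETDB1 replicate 2 or 3 (adjusted p from 0.0766 to 0.0820, edgeR), the sum of replicates 2 and 3 (0.229) and library totals as the only scaling (0.123, log2 fold change 0.23). The 3 small subunit factors without a call were the helicase Ddx10 (-0.25, adjusted p = 0.0816), Nop14 (-0.23, adjusted p = 0.145) and the helicase Ddx21 (0.15, adjusted p = 0.267, all edgeR). Ddx21 had 452, 399 and 412 CPM in the controls and 450.1, 489.8 and 464 CPM in MA9+SETDB1, so its arms overlapped, and its sign turned to -0.08 with library totals only.

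The bases just before the start are printed for Rrp9 and for the 2 box H/ACA genes with the largest falls, so that a gene that rose can be read beside genes that fell. Each line gives the 80 bases before the RefSeq start in GRCm38.p6, on the plus strand, with CG dinucleotides, the letters on which DNA methylation acts, in capitals.
Rrp9, chr9:106477229-106477308: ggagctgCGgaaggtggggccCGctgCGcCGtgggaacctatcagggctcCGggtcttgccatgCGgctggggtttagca
Nhp2, chr11:51619693-51619772: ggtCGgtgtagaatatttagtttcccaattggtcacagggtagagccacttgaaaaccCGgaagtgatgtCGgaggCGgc
Dkc1, chrX:75095774-75095853: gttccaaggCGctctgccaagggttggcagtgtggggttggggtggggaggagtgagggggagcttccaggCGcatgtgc
These stretches hold 6, 4 and 2 CG dinucleotides for Rrp9, Nhp2 and Dkc1, and the whole windows of 300 bases hold 22, 18 and 9. These genes were picked by their fold changes, so their CG counts cannot show whether CG content goes with direction, which was not tested. Methylation was not measured in these libraries.

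Of the 12 large subunit factors, 7 were lower, none was higher and 5 were not called, and all 12 log2 fold changes were negative, with a median of -0.35. The exceptions to that sign were Nop2 without MA9+SETDB1 replicate 1 (0.05) and both Nop2 and Pa2g4 without replicate 1 of both arms (0.10 and 0.01). Rrs1 (chromosome 1, 9545408 to 9547455) helps bring the 5S RNA particle into the large subunit. It had 83.3, 80.7 and 83.9 CPM in the controls and 39.8, 42.5 and 43.1 CPM in MA9+SETDB1. The libraries within each arm were nearly the same and the arms far apart, and Rrs1 fell by 0.98 (SE 0.090, adjusted p = 0.000188, edgeR). Gnl3 (chromosome 14, 31012433 to 31019131) encodes nucleostemin, a GTP-binding protein known from stem and cancer cells. It had 223, 229 and 231 CPM in the controls and 152, 136 and 143 CPM in MA9+SETDB1, with a wide gap between the arms. Gnl3 fell by 0.66 (SE 0.093, adjusted p = 0.00115, edgeR).

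Wdr12, Bop1 and Pes1 form the PeBoW complex, which is needed to process the RNAs of the large subunit. Wdr12 had 145, 132 and 119 CPM in the controls and 82.2, 80.7 and 88.9 CPM in MA9+SETDB1, without overlap, and fell by 0.65 (SE 0.108, adjusted p = 0.00241, edgeR). Pes1 had 151, 148 and 142 CPM against 108, 126 and 125 CPM. Its arms did not overlap either, and its fall of 0.29 passed narrowly (SE 0.10, adjusted p = 0.0424, edgeR). It was the least stable of the calls, lost under 10 of the 15 alternatives, each omission of 1 library among them. Bop1 had 203, 127 and 124 CPM against 122, 124 and 124 CPM. Only MA9+EV replicate 1 stood above the rest, the arms overlapped, and Bop1 was not called (-0.29, SE 0.20, adjusted p = 0.254, edgeR).

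The other 3 large subunit genes called lower were Nop16, Rrp1b and Ddx18. Nop16, a MYC-induced nucleolar protein, fell by 0.55 (SE 0.124, adjusted p = 0.00934, edgeR), from 85.6 to 103 CPM in MA9+EV to between 56.1 and 70.2 CPM. Rrp1b, a nucleolar protein that also acts in transcription, fell by 0.48 (SE 0.122, adjusted p = 0.0138, edgeR), from 117 to 129 CPM to between 75.7 and 99.0 CPM. Ddx18, an RNA helicase, fell by 0.40 (SE 0.125, adjusted p = 0.0322, edgeR), from 56.6 to 62.2 CPM to between 38.1 and 48.4 CPM. In these 3 genes no library of one arm reached the other. Rrp1b lost its call without MA9+EV replicate 3 or MA9+SETDB1 replicate 3, and Ddx18 under 7 alternatives, which included each of MA9+EV replicates 1, 2 and 3 and MA9+SETDB1 replicates 2 and 3.

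The remaining 4 large subunit genes were not called. The paired factors Noc2l and Noc3l, which accompany pre-ribosomes out of the nucleolus, had log2 fold changes of -0.20 (SE 0.111, adjusted p = 0.179) and -0.19 (SE 0.117, adjusted p = 0.210, both edgeR). Pa2g4, a growth-regulated protein that binds ribosomes, stood at -0.13 (SE 0.119, adjusted p = 0.388, edgeR). Nop2, the methyltransferase whose E-box is printed above, had 177, 167 and 156 CPM in the controls and 140.0, 175 and 168 CPM in MA9+SETDB1, with overlap (-0.05, SE 0.119, adjusted p = 0.743, edgeR).

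**Figure D3:**
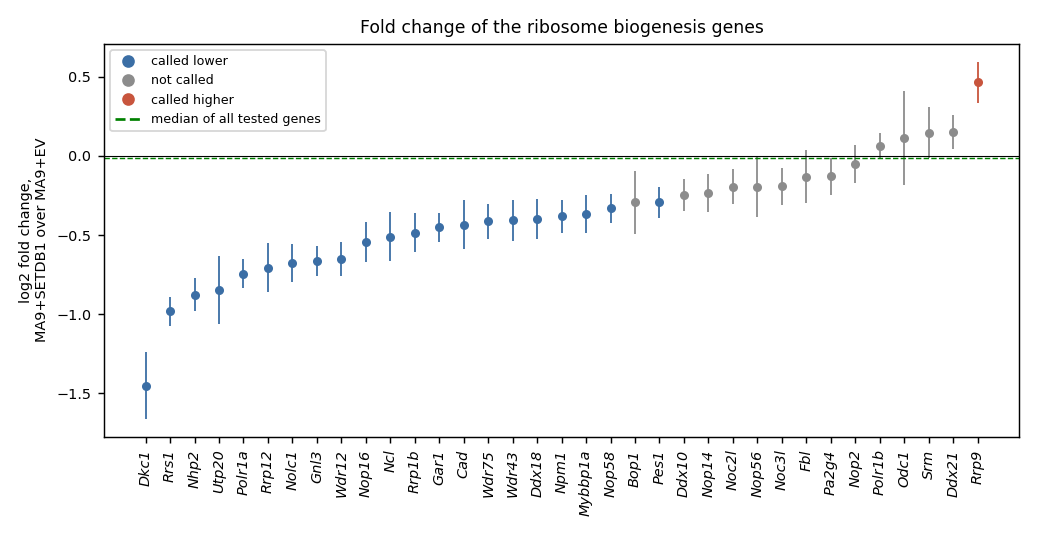
Log2 fold change of each of the 35 genes (MA9+SETDB1 over MA9+EV) in order of size, with bars of 1 SE each way; blue points were called lower, red higher and grey not called by edgeR, and the dashed line marks the median of all tested genes at -0.01. The values run from -1.45 for Dkc1 to 0.46 for Rrp9.

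The 3 genes of nucleotide and polyamine synthesis did not move together. Cad, the enzyme of the first steps of pyrimidine synthesis, had 266, 191 and 188 CPM in the controls and 159.8, 162 and 155 CPM in MA9+SETDB1. Replicate 1 set the MA9+EV spread, the arms did not overlap, and the fall of 0.43 was just inside the threshold (SE 0.153, adjusted p = 0.0488, edgeR). It was lost under 9 of the 15 alternatives, including the omission of MA9+EV replicate 2 and of each MA9+SETDB1 library. Odc1, the rate-limiting enzyme of polyamine synthesis, had 124, 154 and 144 CPM in the controls and 84.6, 184 and 187 CPM in MA9+SETDB1. Replicate 1 of MA9+SETDB1 was the lowest of the 6 libraries and the other two were the highest, and Odc1 was not called (0.11, SE 0.295, adjusted p = 0.769, edgeR). Without MA9+SETDB1 replicate 1 it was called higher (0.41, adjusted p = 0.0173, edgeR), and with library totals only its sign turned to -0.14. Srm, spermidine synthase, had 283, 220.4 and 221 CPM against 221, 287 and 294 CPM and was not called (0.15, SE 0.161, adjusted p = 0.472, edgeR). Its libraries split by number, with replicate 1 high in MA9+EV and low in MA9+SETDB1, and its sign turned to -0.09 with library totals only. Without replicate 1 of both arms, Odc1 and Srm were called higher (0.33, adjusted p = 2.00e-06, and 0.41, adjusted p = 1.61e-08, edgeR), as was Ddx21 (0.25, adjusted p = 5.39e-05). That setting keeps only replicates 2 and 3, which correlated at 0.996 in MA9+EV and 0.995 in MA9+SETDB1. Its small p-values therefore measure only the spread between closely alike libraries.

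Replicate 1 differed from replicates 2 and 3 in both arms. Across genes, log2 CPM of replicates 2 and 3 correlated at 0.996 in MA9+EV and 0.995 in MA9+SETDB1, while replicate 1 correlated with them at 0.976 and between 0.966 and 0.967. Total gene counts lay between 18070482 and 22561757 per library. As a check of the labels, Setdb1 had 105, 108 and 109 CPM in the controls and 475, 605 and 607 CPM in MA9+SETDB1 (log2 fold change 2.39, SE 0.135, adjusted p = 2.42e-05, edgeR). Defining markers of other blood cells moved with the arms. Summed levels of 10 neutrophil and granule genes ran from 14280 to 18770 CPM in the controls and from 56.6 to 135 CPM in MA9+SETDB1, and all 10 were called lower. Those of 10 mast cell and basophil genes ran from 103 to 485 CPM and from 12430 to 13670 CPM, with 9 called higher and Tpsb2 at 0 in MA9+EV. Those of 10 erythroid genes ran from 0.785 to 1.51 CPM and from 1554 to 1905 CPM, with all 10 called higher and Slc4a1 and Alas2 at 0 in MA9+EV. Of 9 tested monocyte genes 3 were higher and 6 lower (2472 to 4238 CPM against 792 to 1807 CPM). No lymphoid gene reported here had enough counts to be tested, and Pax5, Cd3e, Cd4, Cd8a and Ncr1 were at 0 in all libraries. Among 6 leukocyte and leukemia genes (1392 to 1450 CPM against 1046 to 1245 CPM), Spn was higher and Ptprc, Kit, Hoxa9, Hoxa10 and Meis1 were lower. The part of these cell type differences in the values of the 35 genes was not tested.

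A wider list of 198 further genes of the pathway was read beside the 35 genes, and 192 of them matched an identifier and 190 were tested. Of the 190, 64 were lower (33.7%), 24 were higher and 102 were not called, and the median log2 fold change was -0.15. Both the share called lower and the median thus stood between the 35 genes and all tested genes. The count of 24 was 13 or 12 when MA9+EV replicate 2 or 3 was left out, 10 when MA9+SETDB1 replicate 2 or 3 was, 38 when MA9+SETDB1 replicate 1 was, and 9 with library totals only. Calls higher over all tested genes went from 3554 in the main fit to 3053 or 3084, 2999 or 2992, 4231, and 2825 in the same order. The count of 64 was 17 with replicates 2 and 3 summed, a setting under which Ubtf, Taf1d, Utp15, Exosc1, Exosc2 and Exosc5, described next, also lost their calls. Under that setting 1928 of 13942 tested genes were called lower.

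Among 16 genes of the polymerase I machinery, 3 were lower and 2 higher, with a median of -0.01. The share called lower, 18.8%, was below the 26.2% of all tested genes, and the median was that of all tested genes. The 3 were Tcof1 (203, 228 and 229.7 CPM against 123, 119 and 107 CPM, a fall of 0.92, SE 0.105, adjusted p = 0.000456, edgeR), Taf1d and Ubtf. Tcof1 encodes treacle, a nucleolar partner of the polymerase that is mutated in Treacher Collins syndrome, and its arms were far apart. Ubtf, the upstream binding factor that holds ribosomal DNA in an active state, had 269, 261 and 259 CPM against 188, 171 and 165 CPM, without overlap. It fell by 0.59 (SE 0.097, adjusted p = 0.00224, edgeR), and Taf1d, a subunit of the promoter selectivity factor, fell by 0.60 (SE 0.097, adjusted p = 0.00216, edgeR).

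Of 11 genes of snoRNA particles and their assembly, 5 were lower (45.5%) and none higher, with a median of -0.47. Naf1 and Shq1, both assembly factors of the box H/ACA particle, fell by 0.55 (SE 0.096, adjusted p = 0.00293, edgeR) and by 0.50 (SE 0.13, adjusted p = 0.0155, edgeR). Naf1 had 50.01, 53.1 and 51.7 CPM against 35.4, 36.4 and 34.2 CPM, and Shq1 had 31.6, 38.6 and 33.7 CPM against 22.7, 24.4 and 26.2 CPM. In both genes the arms did not overlap. The same held for Znhit3 (-0.775, SE 0.22, adjusted p = 0.0224) and Nufip1 (-0.504, SE 0.132, adjusted p = 0.0163, both edgeR). Znhit3 and Nufip1 were also among the 5 called lower and are named here after their values were seen. Their values under the alternatives are not reported here. Shq1 lost its call without MA9+EV replicate 2 (adjusted p = 0.0635) or MA9+SETDB1 replicate 2 (0.0608), and both Shq1 and Naf1 lost it with replicates 2 and 3 summed (0.149 and 0.0841, edgeR). Rpap3, a subunit of a chaperone complex for snoRNA particles, fell by 0.69 (SE 0.124, adjusted p = 0.00329, edgeR). Host genes, whose introns carry snoRNAs, had 5 of 12 lower (41.7%) and 1 higher, with a median of -0.58. Snhg12 had 15.6, 20.9 and 20.7 CPM against 5.26, 2.68 and 2.75 CPM and fell by 2.42 (SE 0.319, adjusted p = 0.000885, edgeR). Snhg3 fell by 0.94 (SE 0.136, adjusted p = 0.00133, edgeR) and Snhg1 by 0.74 (SE 0.10, adjusted p = 0.000986, edgeR). Poly-A selected libraries count the host transcript and not the mature snoRNA.

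The assembly factors on the wider list were mixed. Among 57 small subunit genes 13 were lower and 7 higher, with a median of -0.08. The share called lower, 22.8%, was below the 26.2% of all tested genes. Tsr2 (40.2, 48.7 and 47.1 CPM against 17.6, 19.1 and 19.3 CPM), a chaperone for the ribosomal protein Rps26, fell by 1.28 (SE 0.125, adjusted p = 0.000239, edgeR). The arms of Tsr2 were wide apart. Tsr1, a GTPase-like factor of the late small subunit precursor, fell by 0.82 (SE 0.090, adjusted p = 0.000395, edgeR), and Utp15, of the same early complex as Wdr43, by 0.56 (SE 0.090, adjusted p = 0.00202, edgeR). Among 57 large subunit genes 22 were lower (38.6%) and 8 higher, with a median of -0.11. Tma16 had 63.4, 65.6 and 64.0 CPM against 14.8, 20.4 and 17.5 CPM and fell by 1.87 (SE 0.142, adjusted p = 8.51e-05, edgeR). Rrp15 had 81.0, 79.9 and 81.5 CPM against 28.0, 25.9 and 27.7 CPM and fell by 1.57 (SE 0.093, adjusted p = 2.94e-05, edgeR). Both are large subunit assembly factors with arms far apart. Surf6, a nucleolar matrix protein, fell by 0.89 (SE 0.089, adjusted p = 0.000278, edgeR).

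Of 17 trimming and exosome genes 6 were lower (35.3%) and 2 higher, with a median of -0.18. The exosome degrades and trims RNA from its 3′ end, and its subunits Exosc2, Exosc1 and Exosc5 fell by 0.63, 0.59 and 0.57 (adjusted p = 0.00184, 0.00186 and 0.00331, edgeR). Of 20 further genes of nucleotide and polyamine synthesis 10 were lower and 4 higher, with a median of -0.35. Umps, which completes the pyrimidine pathway that Cad begins, had 168, 174 and 175 CPM against 77.1, 80.9 and 79.2 CPM. It was lower in every MA9+SETDB1 library by a wide gap and fell by 1.13 (SE 0.085, adjusted p = 8.35e-05, edgeR). Ppat and Gart, of purine synthesis, fell by 1.11 (SE 0.093, adjusted p = 0.000126, edgeR) and 0.66 (SE 0.111, adjusted p = 0.00252, edgeR). Impdh1, of the same list and named after its values were seen, rose by 1.37 (SE 0.231, adjusted p = 0.00255, edgeR). The arms of Impdh1 did not overlap, and its values under the alternatives are not reported here.

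**Figure D4:**
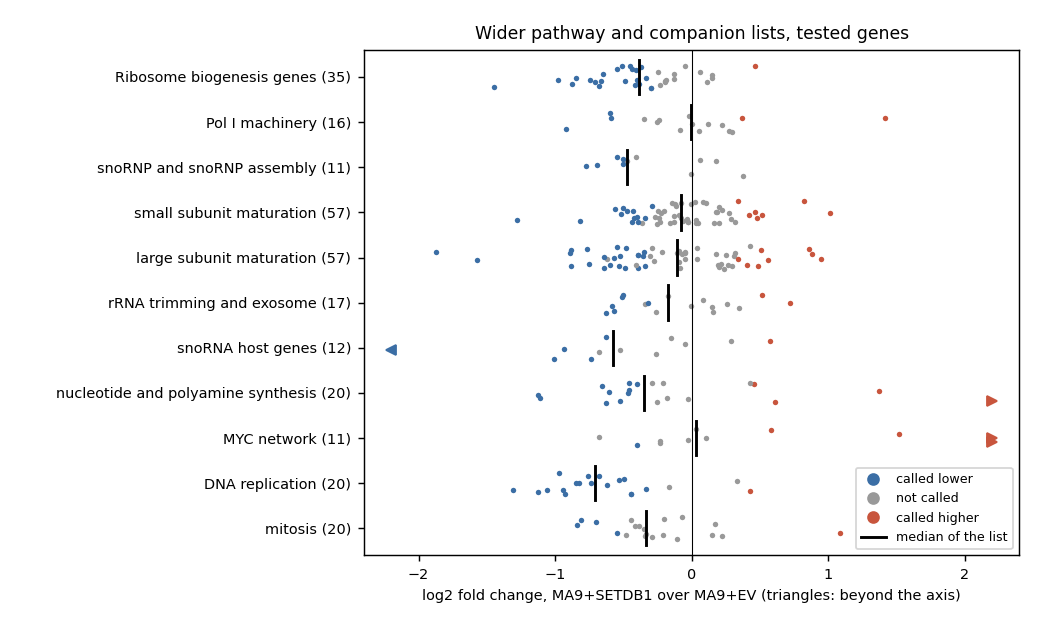
Log2 fold change of every tested gene of the 35 ribosome biogenesis genes, the 7 roles of the wider list and 3 companion lists, with the number of tested genes in brackets; colours give the call by edgeR, vertical bars the list's median and triangles genes beyond the axis (Mxd1, Mycn, Smox and Snhg12). DNA replication has the lowest median at -0.71, snoRNA host genes follow at -0.58 and the 35 genes stand at -0.38.

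Myc, the activator named above, had 376, 491 and 529 CPM in the controls and 368, 422 and 402 CPM in MA9+SETDB1. Replicate 1 was the lowest of each arm, the arms overlapped, and Myc was not called (-0.23, SE 0.154, adjusted p = 0.252, edgeR). It was called lower without MA9+EV replicate 1 (-0.36, adjusted p = 0.0301), without replicate 1 of both arms (-0.29, adjusted p = 9.49e-06) and with library totals only (-0.46, adjusted p = 0.0348, all edgeR). Mycn, its close relative, had no counts in any MA9+EV library and 2021 counts over the 3 MA9+SETDB1 libraries (16.4, 49.4 and 47.6 CPM). Set against 3 counts in the control arm as a whole, Mycn was at least 857-fold higher. Replicate 1 of MA9+SETDB1 was well below the other two.

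Max, the partner that MYC proteins and their antagonists share, had 108, 103 and 98.7 CPM in the controls and 161, 154 and 148 CPM in MA9+SETDB1, without overlap. It rose by 0.58 (SE 0.090, adjusted p = 0.00176, edgeR). Mxd1, which competes with MYC for Max and represses E-box genes, had 48.5, 32.6 and 32.7 CPM against 363, 401 and 373 CPM. Its arms were far apart, and Mxd1 rose by 3.32 (SE 0.190, adjusted p = 2.57e-05, edgeR). Its relative Mxd3 rose by 1.52 (SE 0.338, adjusted p = 0.00834, edgeR), from 3.12 to 6.81 CPM in MA9+EV to between 11.6 and 14.8 CPM. Mga, another Max partner, fell by 0.40 (SE 0.132, adjusted p = 0.0380, edgeR). It lost the call under 7 of the 15 alternatives, among them the omission of each MA9+EV library and of MA9+SETDB1 replicate 2 or 3 (adjusted p from 0.0830 to 0.136, edgeR). Max and Mxd3 lost their calls with replicates 2 and 3 summed. In all, 4 of the 11 tested genes of this network were higher, 1 was lower and 6 were not called. Mxi1 was the closest of the 6 to the threshold, at -0.68 (SE 0.274, adjusted p = 0.0744), and passed it with the replicate block (-0.75, adjusted p = 0.0316, edgeR). The other 4 beside Myc and Mxi1 were Mxd4 (-0.23, adjusted p = 0.619), Mnt (0.11, adjusted p = 0.415), Mlx (0.03, adjusted p = 0.881) and Mlxip (-0.03, adjusted p = 0.819, all edgeR). The signs of these 4 turned under other settings, that of Mnt and Mlx with library totals only (-0.12 and -0.21). Mxd4 was called lower without MA9+SETDB1 replicate 1 (-0.79, adjusted p = 0.00170, edgeR), as was Mxi1 (-1.06, adjusted p = 0.000689, edgeR).

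Genes of DNA replication, which like ribosome synthesis follows the rate of growth, were lower in 17 of 20 (85.0%) and higher in 1, with a median of -0.71. Cdc45, a part of the replicative helicase, had 148, 149 and 146 CPM in the controls and 72.6, 51.5 and 54.7 CPM in MA9+SETDB1 and fell by 1.31 (SE 0.146, adjusted p = 0.000422, edgeR). Gins2, of the same helicase, fell by 1.13 (SE 0.128, adjusted p = 0.000465, edgeR). Of 20 genes of mitosis 4 were lower (20.0%, against 26.2% of all tested genes), 1 was higher and 15 were not called, with a median of -0.34. The 4 became 9 with the replicate block, 7 without MA9+SETDB1 replicate 1 and 12 without replicate 1 of both arms. Calls lower over all tested genes went from 3397 to 3761, 4063 and 5285 in those settings. Birc5, the gene of survivin, had 142, 124 and 124 CPM against 79.2, 70.4 and 68.0 CPM and fell by 0.84 (SE 0.108, adjusted p = 0.000779, edgeR). Nusap1, a protein of the mitotic spindle, had 93.9, 83.0 and 92.4 CPM against 201, 184 and 188 CPM and rose by 1.09 (SE 0.098, adjusted p = 0.000172, edgeR). The part of cell cycle rate in the levels of the 35 genes was not tested.

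How the libraries are scaled sets where no change lies. With library totals as the only scaling, the median of all tested genes moved from -0.01 to -0.24 and the split of all calls moved from 3554 higher and 3397 lower to 2825 higher and 4585 lower. The median of the 35 genes moved with it, from -0.38 to -0.61, and 27 of the 35 were called lower and none higher.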

How the data were processed

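Polyadenylated RNA of 3 MA9+EV and 3 MA9+SETDB1 cultures was sequenced, with groups taken from the sample titles. The series holds 26 samples, and its 20 chromatin samples were not used here. The libraries were strand-specific and poly-A selected, per the labels' protocols. The authors deposited 1 file of raw read counts per gene for each library, without normalization. The submitters' processing notes list the build GRCm38 and, among other tools with no stated role, HTSeq 0.11.0, STAR 2.6.0c, cutadapt 1.18 and FastQC 0.11.7. For the strand setting of the counting, the sources used here give nothing, and genes that overlap others or have antisense partners are uncertain for that reason. Summary lines (24.6% to 26.3% of entries, mostly reads aligned to more than 1 place) stayed out of library sizes and tests.

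A table of identifiers gave the symbols (52480 of 54146 matched by versioned identifier, 1599 by stable identifier and 67 not at all). Gene positions and promoter windows are those of RefSeq for GRCm38.p6. Genes were filtered with filterByExpr by group, scaled by TMM. The quasi-likelihood test was that of edgeR 4.0.16 under R 4.3.3 with limma 3.58.1, its p-values were adjusted by the Benjamini-Hochberg method over 12986 genes, and the threshold was 0.05. A standard error is the log2 fold change divided by the root of F. The common biological coefficient of variation of the fit was 0.244. The fit was also run on simulated counts with a somewhat smaller spread, in which only a small set of genes changed. That run does not check the scaling or the calls where, as here, 53.5% of tested genes were called. The 35 genes, the other lists and the tests were chosen with earlier results of these data known. Named genes are every member, up to 3 tested genes of each role of the wider list and 2 each of DNA replication and mitosis with the smallest p, every tested gene of the MYC network, and Setdb1. Others are said to be chosen after their values were seen.

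Both arms use the replicate numbers 1 to 3. Each library's deviation from the mean of its arm was compared across genes with that of the library of the same number. The correlation was 0.257, 0.196 and 0.169 for 1, 2 and 3. For replicate 2 against replicate 3 across arms it was 0.203 and 0.177. The values thus set replicate 1 apart but do not pair 2 with 2 or 3 with 3. Any pairing rests on these values and the titles only. The main test used no replicate block, so its p-values take no account of a pairing. Alternatives were other scalings (RLE, upper quartile, library totals), DESeq2 1.42.0, no filter, a filter of 1 CPM in 3 libraries, the replicate block, replicates 2 and 3 summed, each library left out in turn, and, added after seeing the data, both arms without replicate 1. A planned description of protein features was not run, and 1 listed marker gene is not reported here. Gene lengths were not used, so levels are not compared between genes.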

Additional observations from a re-analysis of the deposited data

How the results depend on the processing

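The counts of called genes in the 35, the wider list and the companion lists given below, and the log2 fold change of each named gene, were recomputed under 15 alternatives. Summed levels and marker lists were not. Of the 22 called genes among the 35, 8 kept the call in every one (Polr1a, Nolc1, Dkc1, Nhp2, Rrp12, Rrs1, Wdr12 and Gnl3), 2 lost it only with replicates 2 and 3 summed (Gar1 and Nop16), and no called gene changed direction. Beside the replicate-block values given with Mybbp1a, Mxi1 and the mitosis genes, the replicate block changed no call of the 35 genes (20 lower, 1 higher). Leaving out each library in turn gave 12 to 18 of the 35 lower and 0 to 2 higher, 10 to 38 of the wider list higher and 3 to 7 mitosis genes lower. With replicates 2 and 3 summed, which leaves 2 libraries per arm, 8 of the 35 were lower and 0 higher, 17 of the wider list lower and 5 higher, 5 DNA replication and 2 mitosis genes lower, and 2 MYC network genes higher. With library totals only, 0 of the 35 and 9 of the wider list were higher and 13 mitosis genes lower, with upper-quartile scaling 8 mitosis genes, and with the replicate block 9. Both arms without replicate 1 gave 4 of the 35 higher, 58 of the wider list higher and 12 mitosis genes lower. Calls over all tested genes also changed with the setting, but not always in the same direction as these counts. They were 3554 higher and 3397 lower of 12986 in the main fit. With replicates 2 and 3 summed they were 2292 higher and 1928 lower of 13942. Without replicate 1 of both arms they were 5314 higher and 5285 lower of 13380. Without MA9+SETDB1 replicate 1, calls lower over all tested genes rose to 4063 of 13694, while those among the 35 genes fell from 21 to 18. DESeq2 called 19 of the 35 lower.

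Genes without a call changed sign as follows, the cause being not tested. With library totals only, the log2 fold change was -0.17 for Polr1b, -0.077 for Ddx21, -0.14 for Odc1, -0.089 for Srm, -0.12 for Mnt and -0.21 for Mlx. With upper-quartile scaling it was -0.007 for Polr1b and -0.036 for Mlx. With replicates 2 and 3 summed it was -0.02 for Odc1, 0.014 for Mxd4 and -0.045 for Mlx, and without replicate 1 of both arms 0.10 for Nop2, 0.012 for Pa2g4 and 0.037 for Amd1. Leaving out each library in turn gave -0.11 to 0.052 for Nop2, -0.06 to 0.41 for Odc1, -0.787 to 0.006 for Mxd4, -0.06 to 0.19 for Mlx, -0.068 to 0.011 for Mlxip and -0.095 to 0.069 for Amd1. With 3 libraries per arm, the fall of Pes1 (-0.294, SE 0.1) passed only narrowly. Whether a fall was called depended on its SE as well as its size, since Mxi1 at -0.68 (SE 0.274) was not called.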

Other observations

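The 24 genes of the wider list that rose had not been picked by the naming rule, and those below were chosen after their values were seen. Nol12, a nucleolar RNA-binding protein, had 41.3, 37.96 and 37.7 CPM in MA9+EV and 68.9, 70.9 and 72.7 CPM in MA9+SETDB1. The arms were far apart, and Nol12 rose by 0.86 (SE 0.095, adjusted p = 0.000395, edgeR). Ebna1bp2, a large subunit assembly factor, rose by 0.95 (SE 0.102, adjusted p = 0.000364, edgeR), from 149 to 166 CPM in MA9+EV to between 286 and 319 CPM. Polr1c, which RNA polymerases I and III share, had 42.0, 43.7 and 39.4 CPM against 53.7, 54.0 and 53.7 CPM and rose by 0.37 (SE 0.095, adjusted p = 0.0156, edgeR). Polr1c lost the call under 6 of the 15 alternatives, among them the omission of MA9+EV replicate 3 or MA9+SETDB1 replicate 2 or 3 (adjusted p from 0.0538 to 0.0792, edgeR) and library totals only (0.14, adjusted p = 0.300).

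The polyamine genes of the wider list were mixed, with Oaz1, Azin1 and Smox higher and Oaz2 (0.42, adjusted p = 0.136), Sat1 (-0.29, adjusted p = 0.453), Sms (-0.26, adjusted p = 0.206) and Amd1 (-0.03, adjusted p = 0.861, all edgeR) not called. Oaz1, the antizyme that sends ornithine decarboxylase to degradation, had 29.3, 37.8 and 33.6 CPM in MA9+EV and 43.9, 48.0 and 46.5 CPM in MA9+SETDB1, without overlap. It rose by 0.46 (SE 0.127, adjusted p = 0.0198, edgeR), a call lost under 5 alternatives, among them the omission of MA9+EV replicate 3 or MA9+SETDB1 replicate 2 or 3 (adjusted p from 0.0637 to 0.0754, edgeR). Azin1, which blocks the antizyme, had 244, 241 and 223 CPM against 252, 412 and 419 CPM and rose by 0.61 (SE 0.204, adjusted p = 0.0394, edgeR). Replicate 1 of MA9+SETDB1 was just above the controls and the other two far above them. The call of Azin1 was lost under 9 alternatives, among them the replicate block (0.58, adjusted p = 0.0539, edgeR) and the omission of each library except MA9+SETDB1 replicate 1. Smox, spermine oxidase, had 0.909, 2.03 and 1.61 CPM against 31.9, 7.73 and 9.40 CPM and rose by 3.42 (SE 0.655, adjusted p = 0.00433, edgeR). In Smox, replicate 1 of MA9+SETDB1 was the highest library.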
